A study of Mus musculus with 9 samples.

Results

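The genes described here act in mitosis, the stage in which a cell condenses its copied chromosomes, attaches them to a spindle, separates them and divides. They were taken from a list of 35 genes with these roles, and no threshold on their values was part of the choice. Of the 35, 34 had a probe set (a group of probes read as 1 value) annotated to that gene alone, out of 19935 genes measured in this way. The cyclin gene Ccnb1 was not analysed here. Each gene was read from its probe set with the highest mean over all arrays, and 33 of the 34 genes had a single choice, Top2a being the exception.

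The levels come from 9 Affymetrix Mouse Gene 1.0 ST arrays of RNA from NIH 3T3 cells, a mouse fibroblast line, with 3 biological replicates in each of 3 groups. The control cells stably carried the empty vector pLKO.1, and the other groups stably expressed an shRNA against Net (gene Elk3) or against Sap-1 (gene Elk4), factors of the ETS family that act as partners of serum response factor. All groups were seeded on fibronectin for 2 hours, starved of serum overnight and given bovine serum for 1 hour, at 10% in the sample protocols and 20% in the series design. No array was taken before serum, so the comparisons are between serum-treated lines. The labels do not say whether a group is 1 clone, a pool or several lines, nor how many shRNA sequences were used, and p-values measure the spread between the replicates as given.

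As background, entry into mitosis is driven by the kinase Cdk1 with its A and B type cyclins. Kinesins and microtubule-binding proteins then build the spindle, kinetochores attach chromosomes to it, and the checkpoint kinases hold back the anaphase-promoting complex (APC/C) until every chromosome is attached. The central spindle and the contractile ring complete division. The mRNAs of these genes are low in resting cells and are raised late in the cell cycle, in large part through B-Myb, FoxM1 and the MuvB core complex, which binds promoters at the cell cycle homology region (CHR) and acts with CCAAT-binding NF-Y. In serum-starved fibroblasts these genes are commonly used to gauge how many cells remain in cycle. An array of bulk RNA cannot tell more cells in late cell cycle from more mRNA per cell.

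Array medians lay between 7.47 and 7.54 on the log2 scale, and arrays correlated at 0.9981 to 0.9992 within a group and 0.9879 to 0.9947 between groups. The targeted mRNAs were lower in the cells labelled for them. Elk3 fell by 25.5% in Net shRNA cells, and Elk4 fell by 65.5% in Sap-1 shRNA cells. Each was also lower in the other knockdown, where Elk4 fell by 26.4% and Elk3 fell by 8.23%. Of 10 fibroblast markers, 9 had control means of 11.84 or more, led by Fn1 at 14.04 and Vim at 13.91, while Fap lay at 4.66. With Net shRNA 3 of the 10 were lower and with Sap-1 shRNA 4. Lower shares were 10.2% and 13.9% of all genes, and 17.7% and 22.3% of those at or above the median level. In Sap-1 shRNA cells Pdgfra, from 12.69 in control, fell by 1.74 (limma adjusted p = 4.2e-09). Markers of macrophages, epithelium, endothelium, skeletal muscle and adipocytes had list medians of 6.22 to 7.23 in control, 6.26 to 7.54 in Net shRNA and 6.08 to 7.12 in Sap-1 shRNA cells. Of these 25 markers, 6 were higher and 1 lower with Net shRNA, 3 higher and 3 lower with Sap-1 shRNA, and some moved further than any mitosis gene. Among all genes 13.4% were higher and 10.2% lower with Net shRNA, and 15.8% and 13.9% with Sap-1 shRNA. Named from those that rose, after their values were seen, Tek rose by 1.84 with Net shRNA and Cdh5 by 0.84 with Sap-1 shRNA. Krt14 rose by 0.58 and 0.48 and Des by 0.38 and 0.63 in the respective knockdowns. The lowest changes among the 25 markers were -0.30 for an adipocyte marker with Net shRNA and -0.30 for an endothelial marker with Sap-1 shRNA. The part of these markers in the results was not tested. The mitosis genes had means of 7.97 to 11.84, and all 34 lay at or above the median level of the genes tested.

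Promoters of many of the mitosis genes share sequence elements, whose part in the changes was not tested. RefSeq promoter windows of mouse build GRCm38.p6, running from 250 bases before to 50 bases after a transcript start, were matched for 28 of the 34 genes. A CHR (TTTGAA or TTCGAA on either strand) lay in the windows of 24 of 28 mitosis genes, against 19% of the 15561 tested genes with a window, 65.1% of 63 other mitosis genes and 17.1% of 35 DNA replication genes. A CCAAT box (CCAAT on either strand) lay in 22 of 28, against 41.7% of all genes, 69.8% of other mitosis genes and 57.1% of DNA replication genes. Both elements lay in 21 of 28, against 7.7%, 50.8% and 14.3%. The E2F sites TTCCCGCC, TTTCGCGC and TTTGGCGC (either strand) were found in 1 of 28 mitosis genes, that of Cdk1, in 4.73% of all genes and in 48.6% of DNA replication genes. The ETS site CCGGAAGT (either strand) was found in 3 of 28 (Cenpf, Aurka and Ndc80) and in 6.03% of all genes, and a CArG box, the site bound by serum response factor, in 0 of 28 and in 1.63% of all genes. The 100 bases before the transcript start are given 5′ to 3′ on the gene's strand for 8 genes. All 8 have both elements in their windows. None comes from the spindle assembly group or from the group of mitotic kinases and passenger genes (Plk1, Aurka, Aurkb and Birc5). CCAAT boxes and CHRs are in capitals (ATTGG and TTCAAA are the same elements on the other strand).
Cdk1: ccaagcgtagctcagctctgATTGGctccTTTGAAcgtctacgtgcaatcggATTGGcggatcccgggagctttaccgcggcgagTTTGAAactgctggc
Ccnb2: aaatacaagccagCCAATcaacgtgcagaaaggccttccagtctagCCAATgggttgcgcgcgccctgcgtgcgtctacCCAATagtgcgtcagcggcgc
Cdc20: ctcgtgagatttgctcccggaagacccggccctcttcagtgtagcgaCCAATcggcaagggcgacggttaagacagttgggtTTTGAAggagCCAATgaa
Ube2c: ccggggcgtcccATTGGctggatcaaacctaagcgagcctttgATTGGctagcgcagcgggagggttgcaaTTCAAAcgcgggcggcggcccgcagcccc
Kif11: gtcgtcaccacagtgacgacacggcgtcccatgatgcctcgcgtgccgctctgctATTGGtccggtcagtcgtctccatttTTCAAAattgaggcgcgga
Prc1: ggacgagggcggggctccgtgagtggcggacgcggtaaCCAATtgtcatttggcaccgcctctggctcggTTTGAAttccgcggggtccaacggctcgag
Top2a: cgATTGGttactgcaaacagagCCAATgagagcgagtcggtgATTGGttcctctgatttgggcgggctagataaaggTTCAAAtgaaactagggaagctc
Cenpa: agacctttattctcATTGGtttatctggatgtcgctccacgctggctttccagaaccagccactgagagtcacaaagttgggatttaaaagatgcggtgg
The windows are chr10:69352913-69353012, minus strand (Cdk1), chr9:70421555-70421654, minus strand (Ccnb2), chr4:118437344-118437443, minus strand (Cdc20), chr2:164769829-164769928, plus strand (Ube2c), chr19:37376282-37376381, plus strand (Kif11), chr7:80294376-80294475, plus strand (Prc1), chr11:99024190-99024289, minus strand (Top2a) and chr5:30666786-30666885, plus strand (Cenpa). Ccnb2 has 3 CCAAT boxes spaced 33 bases apart, and its CHRs begin at base -167 from the start and at base 5 of the transcript, outside the printed stretch. In Cdk1, Prc1 and Cdc20 a CCAAT box begins 33, 32 and 35 bases before a CHR. In Cenpa the CHR begins at base 17 of the transcript, outside the printed stretch. A match is a description of letters and not evidence of binding.

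In Net shRNA cells 23 of 34 mitosis genes were higher than in control, 0 were lower and 11 did not pass (limma, adjusted p under 0.05 over all 19935 genes). Of all genes, 23.6% were called in all, 13.4% higher and 10.2% lower, and of genes at or above the median level, 23% and 17.7%. The changes were small, with a median of 0.25 on the log2 scale against 0 over all genes, and the largest was 0.51, or 1.43-fold. In 33 of the 34 genes the change was above 0. The arrays of the groups did not overlap for 23 of 34 mitosis genes, against 34.3% of all genes. Here and in the comparisons below, this share includes dim genes. It was not computed for genes at or above the median level, where all 34 lie and calls are more frequent. Counts of higher genes ran from 19 to 26 when each array was left out in turn and from 18 to 27 over the other settings.

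In Sap-1 shRNA cells 15 of 34 mitosis genes were higher than in control, 3 were lower and 16 did not pass. Of all genes, 29.7% were called in all, 15.8% higher and 13.9% lower, and of genes at or above the median level, 26.9% and 22.3%. The median change was 0.17, against -0.02 over all genes, with values from -0.43 to 0.55. Groups did not overlap for 22 of 34 mitosis genes, against 41% of all genes. The 3 lower genes, Cenpa, Cenpf and Nuf2, all belong to the centromere and kinetochore group. Both knockdowns were set against the same 3 control arrays, so their changes from control are not independent of each other. Counts of higher genes ran from 11 to 20 with each array left out. The count was lowest, at 11, without control replicate 3.

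The difference between the knockdowns does not use the control means, though the control arrays enter the fit's estimate of spread. Here 13 of 34 mitosis genes were higher in Net shRNA cells, 2 were lower and 19 did not pass. Of all genes, 27.5% were called, 14.2% higher and 13.3% lower, and of genes at or above the median level, 23.2% and 22.9%. The median difference was 0.12, against 0.02 over all genes, and groups did not overlap for 21 of 34 mitosis genes, against 37.4% of all genes. Counts of higher genes ran from 10 to 15 with each array left out. With the median of each gene's 50 nearest genes at or above the median level (its brighter neighbours) taken off, a setting added after seeing the data, 7 were higher and 3 lower, with a median of 0.07. Of the 15 calls, 5 were kept in every setting run.

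**Figure D1:**
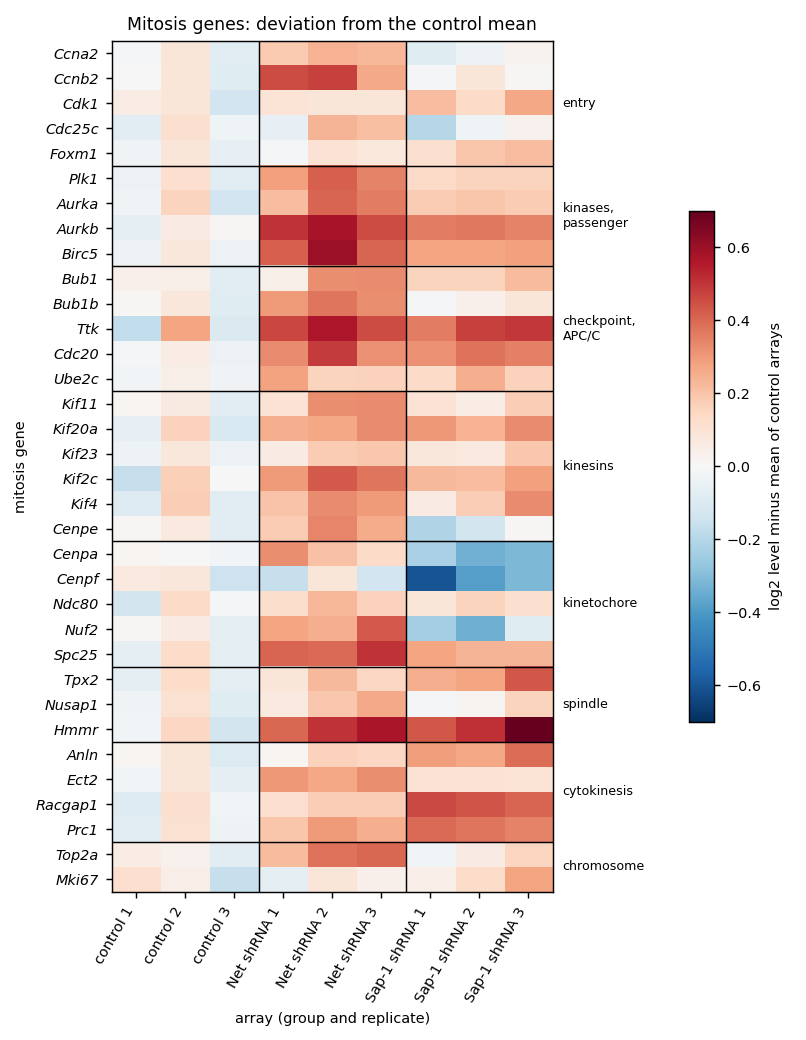
Log2 level of each of the 34 mitosis genes (rows, grouped by role) on each of the 9 arrays (columns), minus the mean of the 3 control arrays, with red above and blue below. Most rows are red on the 3 Net shRNA arrays, Racgap1, Anln and Prc1 are redder on the Sap-1 shRNA arrays, and Cenpa, Cenpf and Nuf2 are blue there.

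The mitosis genes moved together from array to array. The median deviation of the 34 genes from the control mean was -0.02, 0.08 and -0.07 on the 3 control arrays, 0.21, 0.29 and 0.28 on the Net shRNA arrays and 0.13, 0.15 and 0.20 on the Sap-1 shRNA arrays. The groups did not overlap in this median, and the Net shRNA arrays lay highest. Within the control group all 34 genes were above the control mean on replicate 2, and 1 of 34 was above it on replicate 3. Across the 9 arrays the median Pearson correlation between a pair of mitosis genes was 0.65 (middle 50% of 561 pairs from 0.38 to 0.82), and 0.58 with the group means taken off. These pairs share the same 9 arrays and anything that moves a whole array, so the values are descriptions. Pairs of other genes were not measured in this way, so the values are not shown to be particular to mitosis genes. Aurka (median correlation with the other genes 0.84) and Plk1 (0.82) were most like the rest, and Cenpf (-0.10), Cenpa (0.18) and the proliferation marker gene Mki67 (0.23) least.

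Among the genes of mitotic entry, the cyclins rose in Net shRNA cells, whereas Cdk1 and Foxm1 rose in Sap-1 shRNA cells. Ccnb2, a B-type cyclin, measured 10.03, 10.12 and 9.95 in control, 10.49, 10.51 and 10.30 in Net shRNA and 10.02, 10.12 and 10.04 in Sap-1 shRNA cells. All Net shRNA arrays lay above the other 6, which overlapped. Ccnb2 was 1.32-fold higher in Net shRNA cells than in control (log2 change 0.40, SE 0.06, limma adjusted p = 0.00094) and 1.29-fold higher than in Sap-1 shRNA cells (0.37, SE 0.06, adjusted p = 0.0011), with 0.03 in Sap-1 shRNA cells against control (95% interval -0.12 to 0.17). Ccna2, the A-type cyclin of S phase and mitotic entry, measured 11.77, 11.86 and 11.70 in control, 11.96, 12.02 and 12.01 in Net shRNA and 11.69, 11.74 and 11.80 in Sap-1 shRNA cells. It had the same order, with a rise of 0.22 over control (SE 0.05, adjusted p = 0.0076) and a level 0.25 above Sap-1 shRNA cells (adjusted p = 0.0028). That difference was 0.13 with the brighter neighbours' median taken off (adjusted p = 0.064). Cdk1 rose in Sap-1 shRNA cells by 0.21 (SE 0.06, adjusted p = 0.019) and Foxm1, the transcription factor gene, by 0.17 (SE 0.05, adjusted p = 0.024). In Net shRNA cells they lay at 0.09 and 0.06 (adjusted p = 0.38 and 0.51), and neither passed between the knockdowns (-0.12 each, adjusted p = 0.16 and 0.13). The Cdk1 call was lost in 3 cases with 1 array left out (without control 3, Sap-1 shRNA 1 or Sap-1 shRNA 3, adjusted p = 0.055 to 0.074) and that of Foxm1 in 4 (without control 1 or 3 or Sap-1 shRNA 2 or 3, adjusted p = 0.076 to 0.091). Cdc25c, the phosphatase that activates Cdk1, passed in no comparison, with 0.13 and -0.07 from control.

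The mitotic kinases and the survivin gene rose together in Net shRNA cells, 4 of 4, against 23% of all genes at or above the median level. Aurkb, the kinase of the chromosomal passenger complex that corrects faulty attachments, measured 10.78, 10.90 and 10.85 in control, 11.35, 11.42 and 11.30 in Net shRNA and 11.20, 11.21 and 11.19 in Sap-1 shRNA cells. The 3 groups did not overlap, with control lowest and Net shRNA highest. Aurkb rose 1.43-fold in Net shRNA (0.51, SE 0.05, limma adjusted p = 1.6e-05) and 1.28-fold in Sap-1 shRNA cells (0.36, SE 0.05, adjusted p = 0.00013). Birc5 encodes survivin, its partner in that complex, and measured 8.43, 8.54 and 8.42 in control, 8.88, 9.06 and 8.87 in Net shRNA and 8.74, 8.74 and 8.75 in Sap-1 shRNA cells. Its groups were ordered in the same way without overlap, with changes of 0.48 (SE 0.06, adjusted p = 0.0001) and 0.28 (SE 0.06, adjusted p = 0.0025). Net shRNA cells exceeded Sap-1 shRNA cells by 0.16 for Aurkb and 0.20 for Birc5 (adjusted p = 0.027 and 0.019). Both of these calls were lost without Net shRNA replicate 2 and without Sap-1 shRNA replicate 1 or 2, that of Aurkb also without Sap-1 shRNA replicate 3 (adjusted p = 0.055 to 0.095), and after centring arrays on their medians. With the median of the 50 nearest genes of any level taken off the differences were 0.09 and 0.14 (adjusted p = 0.28 and 0.11), and with that of the brighter neighbours 0.03 and 0.10 (adjusted p = 0.69 and 0.16). Plk1, the polo-like kinase, rose by 0.35 in Net shRNA cells (SE 0.05, adjusted p = 0.0007), and Aurka, the spindle pole kinase, by 0.33 (SE 0.07, adjusted p = 0.0062). In Sap-1 shRNA cells they lay at 0.15 and 0.18 (adjusted p = 0.058 and 0.081), with control and knockdown arrays not overlapping. Plk1 was higher by 0.20 in Net than in Sap-1 shRNA arrays (adjusted p = 0.016), a call lost without Net shRNA replicate 2 or Sap-1 shRNA replicate 1 (adjusted p = 0.052 to 0.065) and after centring. The other passenger subunits, picked for their place in the complex and not by the rule for naming genes, were Incenp (0.16 in Net shRNA cells and 0.11 in those with Sap-1 shRNA, adjusted p = 0.044 and 0.14) and Cdca8 (0.37 and 0.34, adjusted p = 0.0018 and 0.002).

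Spindle checkpoint and APC/C genes were higher in 5 of 5 cases in Net shRNA cells and in 3 of 5 in Sap-1 shRNA cells. The shares over all genes at or above the median level were 23% and 26.9%. Ttk, the apical checkpoint kinase Mps1, measured 7.84, 8.29 and 7.91 in control, 8.48, 8.58 and 8.47 in Net shRNA and 8.37, 8.49 and 8.51 in Sap-1 shRNA cells. Every knockdown array exceeded every control array, though control replicate 2 stood well above the other controls. Ttk rose 1.41-fold in Net shRNA cells (0.49, SE 0.10, limma adjusted p = 0.0034) and 1.36-fold in Sap-1 shRNA cells (0.44, SE 0.10, adjusted p = 0.0048), and the knockdowns differed by 0.05 (95% interval -0.17 to 0.27). Cdc20, the APC/C activator that the checkpoint holds in check, measured 10.83, 10.89 and 10.80 in control, 11.17, 11.33 and 11.16 in Net shRNA and 11.16, 11.22 and 11.19 in Sap-1 shRNA cells. The knockdown arrays overlapped each other and lay above control, at 0.38 (adjusted p = 0.00033) and 0.35 (adjusted p = 0.00036), SE 0.05 each, with a difference of 0.03 (95% interval -0.09 to 0.15). Ube2c, the ubiquitin-conjugating enzyme of the APC/C, rose by 0.20 and 0.18 (adjusted p = 0.012 and 0.016), the latter call being lost without control replicate 1 or 3 or Sap-1 shRNA replicate 2 (adjusted p = 0.05 to 0.071). The former was 0.13 with the brighter neighbours' median taken off (adjusted p = 0.085). Bub1b, which encodes BubR1 of the mitotic checkpoint complex, took a different course. It measured 9.64, 9.71 and 9.55 in control, 9.93, 10.01 and 9.96 in Net shRNA and 9.62, 9.67 and 9.72 in Sap-1 shRNA cells, so that Sap-1 shRNA arrays overlapped control. Its rise of 0.33 in Net shRNA cells (SE 0.05, adjusted p = 0.00053) exceeded the 0.04 in Sap-1 shRNA cells, with a direct difference of 0.30 (SE 0.05, adjusted p = 0.0008). The kinase gene Bub1 rose by 0.23 in Net shRNA cells (adjusted p = 0.04) with overlapping arrays, and the call was lost in 8 of 9 cases with 1 array left out (adjusted p = 0.052 to 0.15), the exception being Net shRNA replicate 1.

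Of 6 kinesins, 5 rose with Net shRNA, 2 with Sap-1 shRNA, and none fell. Among all genes at or above the median level 23% and 26.9% were higher, and the count of 2 is near the latter share. Kif2c, the microtubule-depolymerising kinesin MCAK of the centromere, measured 9.60, 9.93 and 9.76 in control, 10.06, 10.19 and 10.14 in Net shRNA and 9.99, 9.98 and 10.05 in Sap-1 shRNA cells. Control arrays were lowest in both comparisons, with a rise of 0.36 in Net shRNA cells (SE 0.07, limma adjusted p = 0.0034) and 0.24 in Sap-1 shRNA cells (SE 0.07, adjusted p = 0.028). The second call was lost in 5 cases with 1 array left out (controls 1 and 3 and each Sap-1 shRNA array, adjusted p = 0.057 to 0.1). Cenpe, the kinetochore kinesin that carries chromosomes to the spindle equator, measured 9.79, 9.85 and 9.70 in control, 9.96, 10.12 and 10.04 in Net shRNA and 9.57, 9.65 and 9.79 in Sap-1 shRNA cells. Net shRNA arrays lay above all others, and Sap-1 shRNA arrays overlapped control. The rise in Net shRNA cells was 0.26 (SE 0.06, adjusted p = 0.012), lost without control replicate 3 or Net shRNA replicate 2 (adjusted p = 0.056 and 0.054), and the direct difference between the knockdowns was 0.37, or 1.29-fold (SE 0.06, adjusted p = 0.0012). Kif20a, a kinesin of the central spindle, rose in both lines (0.29 each, limma adjusted p = 0.0073 and 0.0049, difference -0.01 with a 95% interval of -0.15 to 0.14). The spindle bipolarity motor gene Kif11 rose by 0.25 and the chromokinesin gene Kif4 by 0.27 in Net shRNA cells (adjusted p = 0.017 and 0.03), both calls being lost without control replicate 3 or Net shRNA replicate 2 or 3, that of Kif4 also without control replicate 1 (adjusted p = 0.07 to 0.12). Kif23, the kinesin of centralspindlin, passed in neither line, at 0.14 and 0.11.

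**Figure D2:**
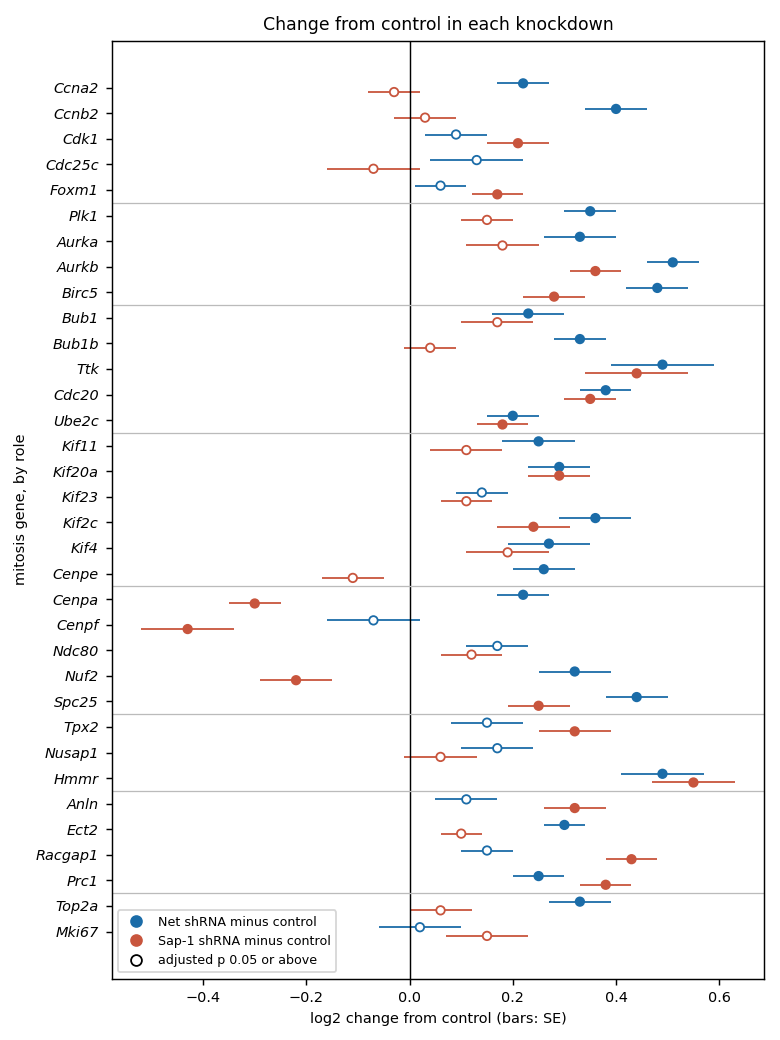
Log2 change from control of each of the 34 mitosis genes, in order of role, for Net shRNA (blue) and Sap-1 shRNA cells (red), with bars of 1 SE from the fit and filled points for adjusted p under 0.05. Net shRNA points reach from -0.07 for Cenpf to 0.51 for Aurkb, and Sap-1 shRNA points from -0.43 for Cenpf to 0.55 for Hmmr.

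In the kinetochore and centromere group the calls in the knockdowns went in opposite directions for Cenpa and Nuf2. In Net shRNA cells 3 of 5 rose and 0 fell, in Sap-1 shRNA cells 1 rose and 3 fell, and in the direct comparison 4 of 5 were higher in Net shRNA cells. Over all genes at or above the median level 23%, 26.9% and 23.2% were higher in these comparisons, and 22.3% were lower with Sap-1 shRNA. These 5 genes do not stand for all kinetochore and centromere genes. Among the other mitosis genes, picked for this role after their values were seen, Mis12 rose by 0.47 with Sap-1 shRNA (limma adjusted p = 0.00011). Cenpm rose there by 0.41 and Kntc1 by 0.38 (adjusted p = 0.00045 and 0.00066). Knl1 (-0.11) and Nsl1 (-0.06) did not pass, and Nek2 and Aspm were the only genes of that list called lower. Cenpa, the histone H3 variant that marks centromeres, measured 10.38, 10.37 and 10.35 in control, 10.69, 10.57 and 10.50 in Net shRNA and 10.14, 10.03 and 10.05 in Sap-1 shRNA cells. The 3 groups were fully separate, with Net shRNA highest and Sap-1 shRNA lowest. Cenpa rose by 0.22 in Net shRNA cells (SE 0.05, limma adjusted p = 0.0096) and fell by 0.30 in Sap-1 shRNA cells (SE 0.05, adjusted p = 0.0011), a direct difference of 0.51, or 1.43-fold (SE 0.05, adjusted p = 2e-05). Nuf2, a subunit of the microtubule-binding NDC80 complex, measured 9.45, 9.50 and 9.38 in control, 9.72, 9.70 and 9.87 in Net shRNA and 9.20, 9.10 and 9.36 in Sap-1 shRNA cells. Its groups were ordered as for Cenpa, again without overlap. Nuf2 rose by 0.32 in Net shRNA cells (SE 0.07, adjusted p = 0.0068), fell by 0.22 in Sap-1 shRNA cells (SE 0.07, adjusted p = 0.033) and differed by 0.54, or 1.46-fold, between them (SE 0.07, adjusted p = 0.00014). The fall of Nuf2 lost its call without control replicate 1 or 2 or Sap-1 shRNA replicate 1 or 2 (adjusted p = 0.089 to 0.13). Cenpf, the large protein of the outer kinetochore, measured 9.54, 9.55 and 9.33 in control, 9.31, 9.56 and 9.34 in Net shRNA and 8.87, 9.09 and 9.16 in Sap-1 shRNA cells. Net shRNA and control arrays overlapped, and Sap-1 shRNA arrays lay below both, with a fall of 0.43 against control (SE 0.09, adjusted p = 0.0036).

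The other subunits of the NDC80 complex did not follow Nuf2 in Sap-1 shRNA cells. Spc25 measured 8.34, 8.53 and 8.34 in control, 8.81, 8.80 and 8.91 in Net shRNA and 8.68, 8.64 and 8.64 in Sap-1 shRNA cells, above control on every knockdown array. It rose by 0.44 (SE 0.06, limma adjusted p = 0.0002) and 0.25 (SE 0.06, adjusted p = 0.0058). Its difference between the knockdowns, 0.19 (adjusted p = 0.025), was not called without Net shRNA replicate 3 or Sap-1 shRNA replicate 2 or 3 (adjusted p = 0.072 to 0.1), after centring, or with the brighter neighbours' median taken off (0.11, adjusted p = 0.17). Ndc80 itself lay at 0.17 and 0.12 (adjusted p = 0.063 and 0.18). The fourth subunit, Spc24, which was picked for its place in the complex, rose by 0.22 and 0.25 (adjusted p = 0.018 and 0.0069).

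Where the 3 kinetochore genes were lower in Sap-1 shRNA cells, the genes next to them on the chromosome were lower too, and the part of these neighbours in the result was not tested beyond the values given here. Among the 50 nearest genes at or above the median level, the median change in Sap-1 shRNA cells was -0.36 around Nuf2, -0.31 around Cenpf and -0.17 around Cenpa, and 39, 33 and 26 of the 50 neighbours were called lower there. Of all genes at or above the median level 22.3% were called lower. Ccna2 and Ect2 each had 23 neighbours called lower, close to the 26 around Cenpa. For all 34 mitosis genes the neighbours' median ran from -0.36 to 0.16 with a median of -0.01. Nuf2 and Cenpf both lie on chromosome 1 but share 0 of these neighbours, and Cenpa lies on chromosome 5. With the neighbours' median taken off each array, a setting added after seeing the data, Nuf2 lay at 0.14, Cenpf at -0.13 and Cenpa at -0.13 (limma adjusted p = 0.2, 0.28 and 0.12), so that 0 of 34 mitosis genes were lower in Sap-1 shRNA cells. With the nearest 50 genes of any level, as planned, Nuf2 lay at -0.13 (adjusted p = 0.28), whereas Cenpf (fell by 0.28, adjusted p = 0.03) and Cenpa (fell by 0.22, adjusted p = 0.0057) kept their calls. In Net shRNA cells the neighbours' medians around these genes were 0, 0.02 and 0, and the rises of Nuf2 (0.31, adjusted p = 0.013) and Cenpa (0.22, adjusted p = 0.018) passed with them taken off. Between the knockdowns Cenpa kept its call under that setting (0.35, adjusted p = 0.00097), while Nuf2 (0.18, adjusted p = 0.12) and Cenpf (0.04, adjusted p = 0.75) did not. Kif2c had the highest neighbours' median in Sap-1 shRNA cells, 0.16, and its change there was 0.07 with it taken off (adjusted p = 0.43).

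**Figure D3:**
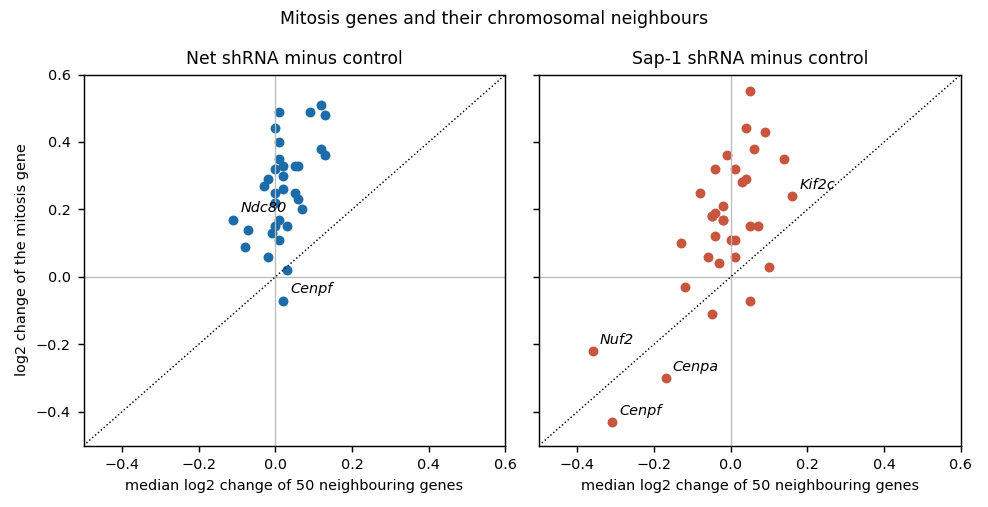
Log2 change of each of the 34 mitosis genes (vertical) against the median log2 change of its 50 nearest neighbours at or above the median level (horizontal), in Net shRNA (left) and Sap-1 shRNA cells (right), with a dotted line of equal change. Nuf2, Cenpf and Cenpa stand apart at the lower left of the Sap-1 shRNA panel, at neighbours' medians of -0.36, -0.31 and -0.17.

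Spindle assembly genes held the largest rise of any mitosis gene in Sap-1 shRNA cells. Hmmr, which encodes a microtubule-binding protein of the spindle poles, measured 8.96, 9.12 and 8.85 in control, 9.38, 9.48 and 9.55 in Net shRNA and 9.41, 9.49 and 9.70 in Sap-1 shRNA cells. Knockdown arrays overlapped each other and lay above control, at 0.49 (SE 0.08, limma adjusted p = 0.0015) and 0.55, or 1.47-fold (SE 0.08, adjusted p = 0.00043). Tpx2, the activator of Aurora A at the spindle, measured 10.17, 10.36 and 10.17 in control, 10.32, 10.46 and 10.38 in Net shRNA and 10.49, 10.51 and 10.67 in Sap-1 shRNA cells. Sap-1 shRNA arrays were the highest, and the rise over control passed there (0.32, SE 0.07, adjusted p = 0.003), with 0.15 in Net shRNA cells (adjusted p = 0.13) and -0.17 between the knockdowns (adjusted p = 0.083). Nusap1, which encodes a microtubule-bundling protein, lay at 0.17 and 0.06 and did not pass.

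Of the cytokinesis genes, 3 of 4 were higher than control in Sap-1 shRNA cells and 2 of 4 in Net shRNA cells, and none was lower. The shares higher over all genes at or above the median level were 26.9% and 23%. Racgap1, the GTPase-activating subunit of centralspindlin, measured 10.91, 11.11 and 10.98 in control, 11.12, 11.17 and 11.17 in Net shRNA and 11.46, 11.44 and 11.41 in Sap-1 shRNA cells. The groups did not overlap, and Sap-1 shRNA cells were highest, 1.35-fold above control (0.43, SE 0.05, limma adjusted p = 6.6e-05). Net shRNA cells lay at 0.15 (adjusted p = 0.057) and were lower than Sap-1 shRNA cells by 0.28 (SE 0.05, adjusted p = 0.0015). Anln, the actin-binding protein anillin of the contractile ring, measured 11.39, 11.46 and 11.28 in control, 11.39, 11.54 and 11.52 in Net shRNA and 11.67, 11.65 and 11.77 in Sap-1 shRNA cells. Net shRNA arrays overlapped control, and Sap-1 shRNA arrays lay above both, by 0.32 over control (SE 0.06, adjusted p = 0.0017). Net shRNA cells were lower than Sap-1 shRNA cells by 0.21 (adjusted p = 0.02), a call lost without Net shRNA replicate 1 or Sap-1 shRNA replicate 3 (adjusted p = 0.074 and 0.08). Prc1, which bundles the midzone microtubules, measured 10.30, 10.48 and 10.34 in control, 10.57, 10.67 and 10.63 in Net shRNA and 10.77, 10.75 and 10.72 in Sap-1 shRNA cells. It rose in both, by 0.25 (SE 0.05, adjusted p = 0.0048) and 0.38 (SE 0.05, adjusted p = 0.00021), with a difference of -0.13 that did not pass (adjusted p = 0.1). Ect2, the exchange factor that activates RhoA at the division plane, was the exception. It measured 10.65, 10.75 and 10.60 in control, 10.97, 10.94 and 10.99 in Net shRNA and 10.77, 10.77 and 10.76 in Sap-1 shRNA cells, with a rise of 0.30 in Net shRNA cells (SE 0.04, adjusted p = 0.00057), 0.10 with Sap-1 shRNA (adjusted p = 0.11) and a direct difference of 0.20 (adjusted p = 0.0064). With its neighbours' median of -0.13 in Sap-1 shRNA cells taken off, Ect2 rose there by 0.23 (adjusted p = 0.0045) and the knockdowns differed by 0.04 (adjusted p = 0.57).

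**Figure D4:**
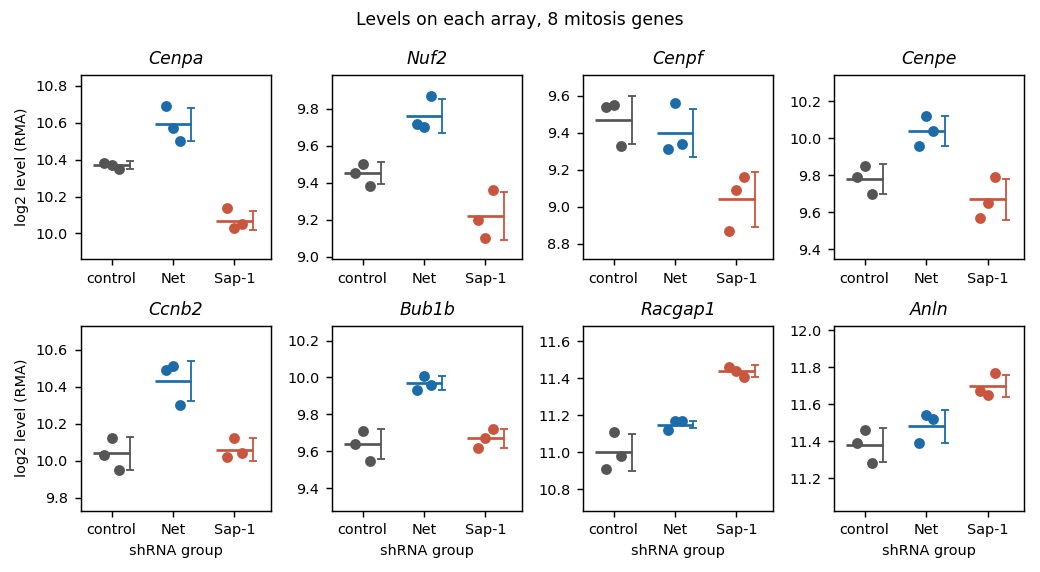
Log2 level of 8 mitosis genes on every array (points), with the mean of each group (line) and its SD (bar, n = 3), every panel spanning 1 log2 unit. Cenpa, Nuf2, Cenpf, Cenpe, Ccnb2 and Bub1b are lower in Sap-1 shRNA than in Net shRNA cells, and Racgap1 and Anln are higher.

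Of the chromosome structure genes, Top2a, the topoisomerase that untangles sister chromatids, measured 10.81, 10.79 and 10.68 in control, 10.98, 11.14 and 11.16 in Net shRNA and 10.74, 10.82 and 10.91 in Sap-1 shRNA cells. Net shRNA arrays lay above all others, by 0.33 over control (SE 0.06, limma adjusted p = 0.0025) and 0.27 over Sap-1 shRNA cells (SE 0.06, adjusted p = 0.0068). A second probe set of Top2a, near the lower end of the table's values, gave 3.88, 3.83 and 3.94 in control, 3.98, 4.08 and 4.05 in Net shRNA and 4.27, 4.20 and 4.69 in Sap-1 shRNA cells. Read from that probe set, Net shRNA cells were lower than Sap-1 shRNA cells (-0.35, adjusted p = 0.027). The direction for Top2a between the knockdowns therefore depends on the probe set. Mki67, the gene of the proliferation marker Ki-67, measured 11.16, 11.09 and 10.88 in control, 10.98, 11.13 and 11.08 in Net shRNA and 11.09, 11.17 and 11.32 in Sap-1 shRNA cells, overlapping in every pair of groups. It did not pass in any comparison, with 0.02 (95% interval -0.15 to 0.19) in Net shRNA and 0.15 (-0.02 to 0.32) in Sap-1 shRNA cells.

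**Figure D5:**
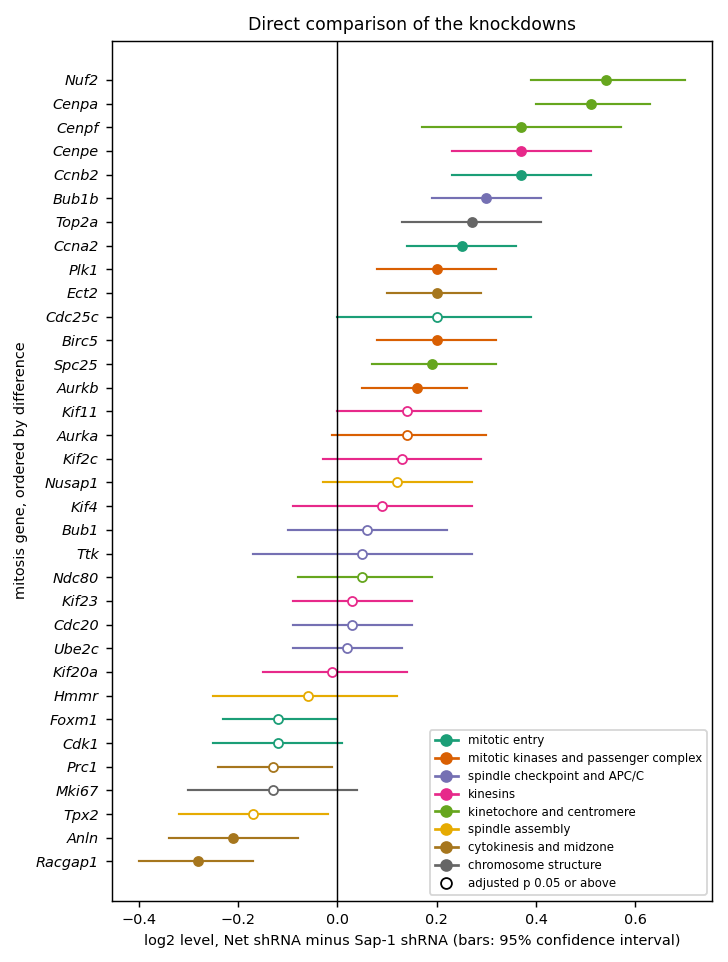
Difference in log2 level between Net shRNA and Sap-1 shRNA cells for each of the 34 mitosis genes, ordered by size and coloured by role, with 95% confidence intervals and filled points for adjusted p under 0.05. The 13 genes higher in Net shRNA cells run from Aurkb at 0.16 to Nuf2 at 0.54, and Anln and Racgap1 are the 2 that are lower.

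Across the roles, the direct comparison put 4 of 5 kinetochore genes, 3 of 4 kinases and passenger genes, 2 of 5 entry genes, 1 of 5 checkpoint genes and 1 of 6 kinesins higher in Net shRNA cells, with none lower in these groups. Of all genes at or above the median level 23.2% were higher and 22.9% lower. The counts of 1 of 5 checkpoint genes and 1 of 6 kinesins are near that share. Median differences were 0.37 for kinetochore genes, 0.20 for entry genes, 0.18 for kinases and passenger genes, 0.11 for kinesins, 0.05 for checkpoint genes, -0.06 for spindle assembly genes and -0.17 for cytokinesis genes. Of the cytokinesis genes 1 of 4 was higher and 2 were lower, of the chromosome structure genes 1 of 2 was higher (median 0.07), and of the spindle assembly genes none passed. The central spindle genes Kif23 and Kif20a were counted as kinesins and differed by 0.03 and -0.01. Of further cytokinesis genes, picked for this role, Kif14 was higher in Net shRNA cells (0.33, limma adjusted p = 0.0022). Cep55 (0.10), Cit (-0.01) and Iqgap3 (0.07) did not pass, so the cytokinesis median depends on which genes are counted. With the brighter neighbours' median taken off, 1 of 5 kinetochore genes (median 0.12), 1 of 4 kinases and passenger genes (median 0.07) and 2 of 5 entry genes (median 0.13) were higher. With neighbours of any level the counts were 3, 1 and 2 (medians 0.18, 0.12 and 0.20), so the order of the roles depended on the setting. Kinetochore genes of the other list, picked for this role, went both ways between the knockdowns. Pmf1 was higher in Net shRNA cells (0.44), and Zwint (-0.24) and Cenpk (-0.26) were lower. Each role holds 2 to 6 genes, and differences between roles were not tested.

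Of 80 further genes listed, 77 were measured, of which 47 were higher and 1 lower in Net shRNA cells (median 0.23) and 38 higher and 2 lower in Sap-1 shRNA cells (median 0.21). Over all genes tested, 13.4% were higher and 10.2% lower in the first comparison, and 15.8% and 13.9% in the second. Among those with the smallest adjusted p were Hmgb2, a chromatin protein gene (0.85 in Net shRNA cells, SE 0.06, limma adjusted p = 2.2e-06), Ckap2, a spindle protein gene (0.89 with Net shRNA, 0.59 with Sap-1 shRNA), and Gtse1 (0.71 and 0.91). Zwint, a kinetochore gene, was the 1 lower in Net shRNA cells (fell by 0.24, SE 0.04, adjusted p = 0.0012). The 2 lower in Sap-1 shRNA cells were Nek2, a centrosome kinase gene (fell by 0.28, SE 0.06, adjusted p = 0.0036), and Aspm, a spindle pole gene (fell by 0.25, SE 0.08, adjusted p = 0.042). Nek2 also rose by 0.25 in Net shRNA cells (adjusted p = 0.009). Between the knockdowns 19 of the 77 were higher in Net shRNA cells and 6 lower, with a median of 0.07. Here 14.2% of all genes and 23.2% of those at or above the median level were higher, and 13.3% and 22.9% were lower. The count of 19 is near the 23.2%.

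DNA replication genes, which act earlier in the cycle, rose in 32 of 43 cases in Net shRNA cells (median 0.33) and in 38 of 43 in Sap-1 shRNA cells (median 0.37), with 0 lower in both, against 13.4% and 15.8% of all genes higher. Where 13 mitosis genes were higher and 2 lower in the direct comparison, 4 of the 43 replication genes were higher and 12 lower, with a median of -0.04. The shares were 14.2% and 13.3% of all genes, and 23.2% and 22.9% of those at or above the median level. The count of 12 lower genes is near the last of these shares. Among those lower were Mcm3, a subunit of the replicative helicase (-0.35, SE 0.05, limma adjusted p = 0.00013), and Orc1 of the origin recognition complex (-0.38, SE 0.07, adjusted p = 0.0018). Mcm3 rose by 0.79 in Sap-1 shRNA cells, where the largest rise among the 34 mitosis genes was 0.55. These lists were compared by counts and medians, and the difference between them was not tested.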

How the data were processed

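The authors deposited log2 values. The submitters' processing notes name RMA and the Affymetrix Expression Console software, and the version and settings are not given in the sources used here. RMA subtracts background, brings arrays to a common distribution and summarises probes, so dim changes are compressed and a shift shared by most genes is removed. Of 28815 probe sets, 21780 had 1 symbol, 1605 several and 5430 none. Only the first kind was used, with symbols updated through Entrez IDs in RefSeq (21689 matched). Cross-hybridisation was not tested.

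Group means were fitted to all 9 arrays at once in R 4.3.3 with lmFit and eBayes of limma 3.58.1 (no trend, 6 residual and 4.7 prior degrees of freedom) and Benjamini-Hochberg adjustment over 19935 genes, and the scripts were tested on simulated data. The threshold for a call was an adjusted p under 0.05. Errors are standard errors of the fit. Promoter motifs were counted in Python 3.11.15. The number of arrays limits the precision, and files give no detection calls. The genes and lists were chosen with earlier results of these data known. Values per array were given for the 2 called genes with the largest change in each role, those called in opposite directions, those called between the knockdowns at 0.3 or more, and those whose probe sets oppose each other. Ect2, Mki67, Anln and Spc25 were added after their values were seen. Genes of other lists were named by adjusted p, up to 4 per direction, apart from those said to be picked for their role or place in a complex. Deviations of same-numbered arrays of different groups correlated at -0.11 to 0.36, above 0.1 in 5 of 9 pairs, among them all those of replicate 1. Since not every pair passed 0.1, the number was not used as a block.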

Additional observations from a re-analysis of the deposited data

How the results depend on the processing

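With each array left out, the mitosis genes higher ranged from 19 to 26 (Net shRNA), 11 to 20 (Sap-1 shRNA) and 10 to 15 (Net over Sap-1 shRNA), those lower from 0 to 0, 2 to 3 and 1 to 2, and their medians from 0.23 to 0.30, 0.13 to 0.21 and 0.09 to 0.16. Of 23, 18 and 15 calls, 19, 13 and 10 were kept with each array left out, and 17, 11 and 5 in every setting run. At an adjusted p under 0.01, 8 were higher and 1 lower between the knockdowns, and of all genes 1314 were lower in Net shRNA cells, against 2034. With the brighter neighbouring genes' median taken off, added after seeing the data, 0 were lower in Sap-1 shRNA cells, 7 were higher between the knockdowns (median 0.07), and Nuf2 turned to 0.14 in Sap-1 shRNA cells. Top2a turned between the knockdowns with the mean of its probe sets (-0.04) or its second probe set (-0.35). With the replicate block, counts were 24 and 0, 17 and 3, and 14 and 2, and 4 of 9 arrays correlated best with their own number in another group. Of 2247 values of single genes under other settings, 95 lost and 56 gained a call and 3 turned; the cause was not tested. The mitosis genes' mean levels of 7.97 or more lie above the lowest value of the table, 3.24, while the second probe set of Top2a lies near it.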

Other observations

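Of 14 measured genes of the MuvB, E2F and CDK inhibitor list, 3 rose and 0 fell in Net shRNA cells, and 3 rose and 1 fell in Sap-1 shRNA cells. These shares are near the 23% and 26.9% of all genes at or above the median level that were called higher, so the counts are not a result about the regulators. Mybl2, the gene of B-Myb, measured 8.90, 8.91 and 8.98 in control, 9.26, 9.51 and 9.23 in Net shRNA and 9.22, 9.45 and 9.26 in Sap-1 shRNA cells, above control on every knockdown array, with rises of 0.40 and 0.38 (SE 0.08 each, limma adjusted p = 0.003 and 0.0031). Tfdp1, the E2F partner gene, rose by 0.22 and 0.23 (SE 0.04 each, adjusted p = 0.002 and 0.0012). Lin9, a MuvB subunit gene, rose by 0.31 in Net shRNA cells (SE 0.07, adjusted p = 0.0069) and was higher there than in Sap-1 shRNA cells by 0.33 (adjusted p = 0.0034). The repressor gene E2f7 rose by 0.39 (SE 0.05, adjusted p = 0.00014) and E2f5 fell by 0.36 (SE 0.06, adjusted p = 0.00089) in Sap-1 shRNA cells.

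Nek2, one of the other mitosis genes that were lower in Sap-1 shRNA cells, had a neighbours' median of -0.29 there. Of its 50 neighbours 32 were called lower, against 22.3% of all genes at or above the median level. How many of these neighbours are also neighbours of Cenpf or Nuf2 was not counted, so Nek2 may not be a separate case. Nek2 lay at 0.01 with the neighbours' median taken off (limma adjusted p = 0.85). Its rise in Net shRNA cells passed under the same setting (0.23, adjusted p = 0.0075). Aspm had a neighbours' median of -0.06 and lay at -0.19 with it taken off (adjusted p = 0.082).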
